A study of Mus musculus with 12 samples.

Results

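Transcripts of the NR4A nuclear receptors Nr4a1, Nr4a2 and Nr4a3 and of the early growth response factors Egr1, Egr2 and Egr3 were compared between 2 populations of CD4 T cells. These 6 genes were taken by name from the 55401 genes of the deposited tables, and the rule for them uses no measured value. All 12 libraries came from spleens of C57BL/6 mice that had been infected with Leishmania donovani, the protozoan parasite of visceral leishmaniasis, and the spleens were taken on day 21 of infection. After magnetic enrichment of CD4 T cells, flow sorting gave LAG-3+ CXCR5+ PD-1lo/int cells (called TLCP here, 6 libraries) and Tfh cells (6 libraries), which the series describes as CXCR5+ PD-1hi and mostly of germinal centers. No uninfected group was among the samples, and no allele, transgene or drug is named for either population. Neither the age of the animals nor a genotype beyond the strain is given in the sources used here, and whether a library pooled animals is not given either. The LAG-3, CXCR5 and PD-1 gates define the groups, so the comparison is between sorted fractions of infected spleens and not between treatments.

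The NR4A and EGR genes are immediate early genes: a T cell that meets its antigen transcribes them within the first hours of T cell receptor signaling, through calcium and MAP kinase routes that act on CREB, SRF, MEF2 and NFAT. NR4A proteins are orphan nuclear receptors that bind DNA as monomers or dimers and are known in T cells for roles in negative selection, regulatory T cell identity and the restrained state of chronically stimulated cells. EGR proteins are zinc finger factors with shared DNA binding preferences. Egr1 is the general mitogen-responsive member, whereas Egr2 and Egr3 are tied to anergy, to limits on T cell activation and to the differentiation of follicular helper cells. The same families respond to the antigen receptor of B cells.

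Assigned reads came to 6939770 to 12688306 a library. Levels are counts per 1000000 assigned reads scaled by the trimmed mean of M-values (TMM-scaled CPM), and a count of 0 allows up to 0.239 to 0.478 CPM in a library on that scale (3 counts, counting error only). Levels of different genes were compared only as deposited TPM, which divides by transcript length. Differences are log2 fold changes, TLCP minus Tfh, from edgeR's quasi-likelihood test over 12015 genes, with p-values adjusted by Benjamini and Hochberg and called under 0.05. Of the genes tested, 33.2% were called, 16.8% higher and 16.4% lower in TLCP (2014 and 1969 genes). The split depended on scaling, with 3207 higher and 893 lower (26.7% and 7.43% of genes, 34.1% in all) when library totals alone were used and 3430 higher and 504 lower (28.5% and 4.19%, 32.7% in all) on log2(TPM + 1). The median of all genes moved from 0.00 to 0.17 and 0.25. The 6 T cell markers were abundant in both populations (summed 2659 to 3221 CPM in TLCP and 3683 to 4082 in Tfh), and 5 of them were lower in TLCP. Other cell types left transcripts as well. The summed CPM of 8 B cell markers was 4718 to 23736 in TLCP and 1178 to 2033 in Tfh, and 6 of the 8 were called higher in TLCP. Most of that sum was the immunoglobulin gene Ighm, at 3730 to 22786 CPM in TLCP and 799 to 1561 in Tfh. Of the 6 plasma cell markers, 5 were tested and all 5 were higher (summed 715 to 3324 against 80.6 to 249 CPM). Of the 6 basophil and mast cell markers, 5 were tested and all 5 were higher (26.1 to 96.2 against 0.239 to 7.17 CPM). Of the 4 dendritic cell markers, 3 were tested and 2 were higher (5.29 to 18.1 against 0.708 to 6.21 CPM). None of 3 tested macrophage and monocyte markers passed (28.9 to 105 against 17.2 to 79.5 CPM), and of the 3 tested CD8 T and NK cell markers 1 was lower in TLCP (9.85 to 20.8 against 15.1 to 22.3 CPM). No marker was at 0 in all 12 libraries. In bulk RNA, fewer cells that express a gene and less of its RNA per cell cannot be told apart.

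Sequence just upstream of 3 of the genes is shown first, because Nr4a3 and Egr2 are the members that differed between the populations and Nr4a1 is the paralog that did not follow Nr4a3. RefSeq promoter windows on GRCm38.p6 were found for 4 of the 6 genes, 8 windows in all because Egr2 has 5 annotated starts. Searched on both strands were the core of the cyclic AMP response element (CRE), TGACG, the full CRE TGACGTCA, which contains that core, the EGR site GCGNGGGCG, the NR4A site AAAGGTCA (NBRE), the AP-1 site TGANTCA and the serum response element core (CArG box). Capitals mark matches to any of these motifs, and a match on the minus strand appears as the reverse complement. Nr4a1 lies on chromosome 15 at chr15:101254269-101274795 (plus strand), and the 250 bases before its RefSeq start at 101266846, within the span of the gene, are chr15:101266596-101266845. Nr4a3 lies at chr4:48045153-48086447 (plus strand), and the 98 bases before its first annotated exon are chr4:48045055-48045152. Egr2 lies at chr10:67535475-67542188 (plus strand), and the 250 bases before its RefSeq start at 67537869, a window within the span of the gene and chosen because it holds 2 kinds of motif, are chr10:67537619-67537868.
Nr4a1: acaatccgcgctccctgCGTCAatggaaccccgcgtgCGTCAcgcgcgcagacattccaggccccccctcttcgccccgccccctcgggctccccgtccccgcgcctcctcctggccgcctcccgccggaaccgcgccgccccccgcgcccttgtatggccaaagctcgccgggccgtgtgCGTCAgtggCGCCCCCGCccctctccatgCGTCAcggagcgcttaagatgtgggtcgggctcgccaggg
Nr4a3: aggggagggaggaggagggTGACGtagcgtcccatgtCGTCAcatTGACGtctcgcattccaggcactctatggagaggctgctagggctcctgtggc
Egr2: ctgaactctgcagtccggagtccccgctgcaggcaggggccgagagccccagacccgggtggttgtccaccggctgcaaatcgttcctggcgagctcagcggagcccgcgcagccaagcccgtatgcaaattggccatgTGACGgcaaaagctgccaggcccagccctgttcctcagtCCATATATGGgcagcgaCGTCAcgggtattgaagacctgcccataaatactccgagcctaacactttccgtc
The Nr4a1 window held 4 CRE cores and 1 EGR site. In Nr4a3 the printed stretch held 3 cores, and 1 more followed within the 250 bases before the RefSeq start at 48045305. The Nr4a2 window (chr2:57124004-57124253, minus strand, not printed) also held 4 cores and 1 EGR site. A core was found in 17.8% of 32851 RefSeq windows of 250 bases, and 4 or more in 0.137% (45 windows). Egr2 had 2 cores in the printed window and a CArG box from 72 to 63 bases before the start, a motif present in 1.47% of windows. The Egr2 windows before 67537870 and 67537930 overlap the printed one and hold the same matches. The window before 67537566 held a CArG box and no core, and the window before 67535499 held no match. EGR sites were in 4.70% of windows. No window of these genes held an NBRE (1.34% of all windows), a full CRE (1.55%) or an AP-1 match (6.75%). These are letter matches in short windows, with no measurement of binding behind them.

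All 6 genes passed the filter on low counts, and 2 of the 6 were called, Egr2 and Nr4a3, both lower in TLCP (background: 16.4% of tested genes lower). No member was called higher in this edgeR fit or by DESeq2, and no further member had an unadjusted p under 0.05 in either. Nr4a1 was called higher in some other fits, given below. The median log2 fold change of the 6 was -0.12, beside 0.00 over all genes tested. Each family thus had 1 member that was lower in TLCP by about the same amount and 2 members that did not pass.

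Nr4a3, which encodes the orphan receptor NOR-1, ranged from 11.4 to 18.4 CPM in TLCP (median 14.1) and from 23.4 to 35.2 CPM in Tfh (median 31.4). The highest TLCP library lay below the lowest Tfh library, and each of the 6 numbered pairs had less Nr4a3 in TLCP. Such a separation downward was seen for 8.86% of the genes tested. Means were 14.2 ± 2.40 against 30.8 ± 4.29 CPM (SD, n = 6 each), which gave a log2 difference of -1.12 (SE 0.13, edgeR adjusted p = 1.17e-06), or 2.17-fold lower. The log2 ratios of the pairs ran from -1.47 to -0.75.

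Nr4a1, which encodes Nur77, a common reporter of antigen receptor signaling, did not go the way of Nr4a3. It ranged from 21.2 to 32.2 CPM in TLCP (median 26.4) and from 15.95 to 28.5 CPM in Tfh (median 21.9). The populations overlapped, yet the TLCP library was the higher one in 6 of 6 numbered pairs, as it was for 17.6% of all genes tested. Means were 26.7 ± 4.29 and 22.2 ± 5.14 CPM, and the log2 fold change of 0.27 (SE 0.14, 95% interval -0.01 to 0.55) missed the edgeR threshold (adjusted p = 0.162). With the library number as a block the value was 0.28 and passed (edgeR adjusted p = 0.0378), in a fit that called 37.1% of the genes tested (19.1% of the genes tested were higher and 18.0% lower). Nr4a1 also passed with library totals alone (0.45, edgeR adjusted p = 0.0225) and on log2(TPM + 1) (0.54, limma adjusted p = 0.0148), where 26.7% and 28.5% of all genes were called higher and 7.43% and 4.19% lower.

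Nr4a2 (chr2:57106830-57124003), which encodes Nurr1, was the scarcest of the set. Its TLCP libraries held 0.542 to 3.44 CPM (median 1.51) and its Tfh libraries 0.443 to 2.87 CPM (median 1.76). The ranges overlapped almost fully, and TLCP was higher in 3 of 6 pairs. With means of 1.64 ± 0.957 and 1.83 ± 0.891 CPM, the log2 fold change of -0.13 had a 95% interval of -1.01 to 0.76 (edgeR adjusted p = 0.856). It had 5 to 35 counts a library, and the interval leaves the direction and the size of any difference unresolved.

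Egr2 ranged from 23.5 to 33.9 CPM in TLCP (median 27.1) and from 56.6 to 70.5 CPM in Tfh (median 62.2). All 6 Tfh libraries lay above all 6 TLCP libraries, and every numbered pair had the lower level in TLCP, with pair ratios of -1.59 to -0.74 on the log2 scale. Means were 28.2 ± 4.85 and 62.8 ± 4.76 CPM, a log2 fold change of -1.16 (SE 0.10, edgeR adjusted p = 4.96e-08), or 2.23-fold lower. Only 3.17% of the genes tested (381) were called and at least 2-fold lower in TLCP, and both Egr2 and Nr4a3 are among them. Their size rested on scaling. With library totals alone they stood at -0.99 and -0.94, and on log2(TPM + 1) at -0.85 and -0.74, short of 2-fold.

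Egr1, the general mitogen-responsive member (chr18:34859823-34864984), was measured at 64.0 to 105 CPM in TLCP (median 87.4) and at 87.9 to 106 CPM in Tfh (median 92.2). The ranges overlapped, and TLCP was lower in 4 of 6 pairs, most clearly in the pair numbered 6. The log2 fold change was -0.11 (SE 0.10, 95% interval -0.30 to 0.07, edgeR adjusted p = 0.392). Its sign turned with scaling, to 0.06 with library totals alone and 0.16 on log2(TPM + 1).

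Egr3, the close relative of Egr2 (chr14:70077203-70082614), ranged from 29.4 to 45.7 CPM in TLCP (median 34.1) and from 29.9 to 37.7 CPM in Tfh (median 36.8). The Tfh range lay inside the TLCP range. The log2 fold change was 0.02 (SE 0.11, 95% interval -0.19 to 0.24, edgeR adjusted p = 0.89), and the lower end of that interval lies above the -1.16 of Egr2. Library 6 of TLCP had the lowest Egr1 and the highest Egr3 of all 12 libraries. None of the 6 genes overlaps another gene in the GENCODE annotation.

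**Figure D1:**
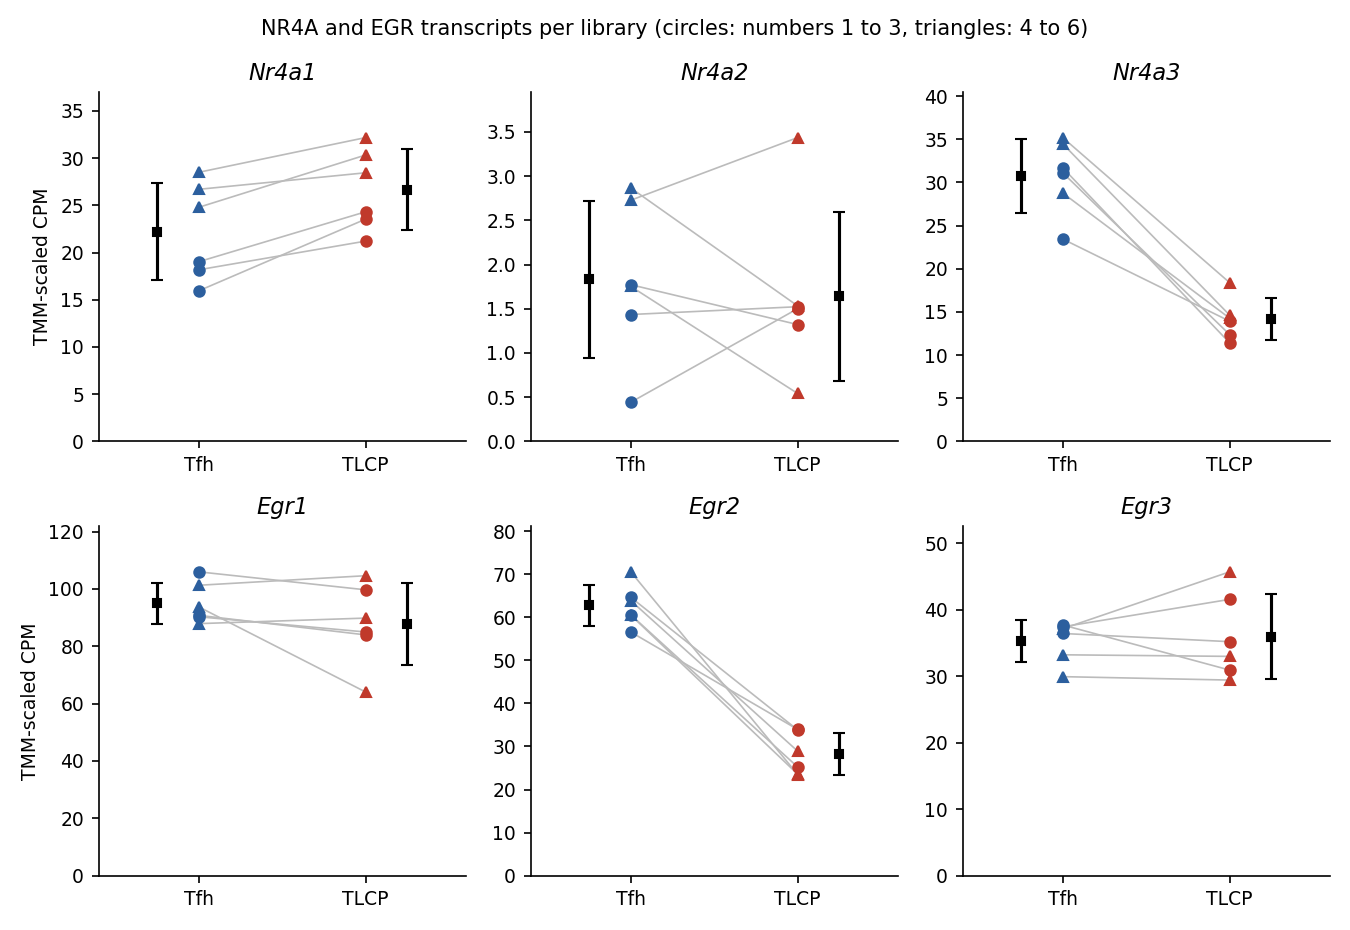
TMM-scaled CPM (vertical axes, from 0) of the 6 genes in each Tfh library (blue) and TLCP library (red), with a line joining libraries of the same number, circles for numbers 1 to 3, triangles for numbers 4 to 6, and black squares with bars for the mean ± SD over 6 libraries. Nr4a3 and Egr2 fall in every pair with no overlap between populations, and Nr4a1 lies higher in TLCP in every pair while the populations overlap.

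In the authors' deposited table, Egr2 had a log2 fold change of -1.149 and Nr4a3 one of -1.105 (adjusted p = 7.06e-24 and 2.35e-14, DESeq2). The remaining 4 members did not pass 0.05 in the authors' deposited table, where Nr4a1 had the smallest adjusted p of the 4 (0.188). Across 17 other settings of scaling, filter, counting, test and sample choice, the log2 fold change of Egr2 lay between -1.37 and -0.85 and that of Nr4a3 between -1.25 and -0.74, and both were called in all 17. Both were also called in each of 12 fits that left out 1 library. The TLCP libraries numbered 4 and 5 carried the most Ighm, the immunoglobulin heavy chain of naive B cells. Without them the log2 fold changes were -1.12 for Egr2, -1.25 for Nr4a3 and 0.13 for Nr4a1 (edgeR adjusted p = 0.583 for Nr4a1). The same 2 libraries had the highest Nr4a1 of TLCP (32.2 and 30.3 CPM), and Nr4a1 also varied with the library number, as given below. Since the Tfh libraries numbered 4 and 5 stayed in that fit, Ighm and library number cannot be told apart in its Nr4a1 value. The 4 TLCP libraries that remained still held 3730 to 8871 CPM of Ighm, against 799 to 1561 CPM in Tfh. The part of other cells in the values of the members was not tested.

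**Figure D2:**
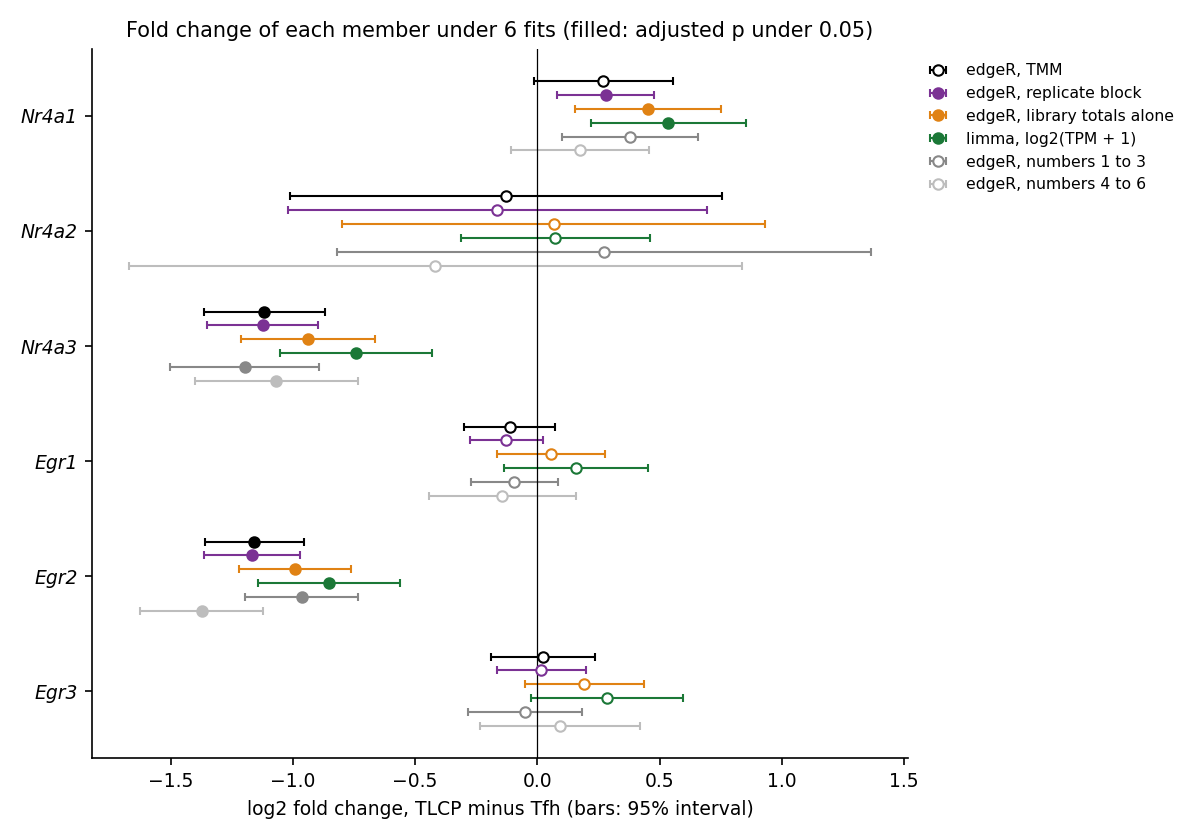
Log2 fold change, TLCP minus Tfh (horizontal axis), of each gene under 6 fits, with bars of the 95% interval and filled points where the adjusted p was under 0.05. Egr2 and Nr4a3 stay left of 0 and filled in all 6 fits shown, and Nr4a1 lies right of 0 in all 6 and is filled in 3.

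Because each ratio of paralogs is formed within a library, it needs no scaling between libraries. The log2 ratio of Nr4a1 to Nr4a3 counts was 0.61 to 1.09 in TLCP and -0.96 to -0.11 in Tfh. The ratio was higher in TLCP in 6 of 6 pairs, with a difference of 1.40, or 2.64-fold (2-sided exact permutation test, p = 0.00216, adjusted over 4 ratios 0.00289). That p is the smallest the design allows. Egr1 relative to Egr2 rose from a log2 ratio of 0.41 to 0.71 in Tfh to 1.32 to 1.93 in TLCP, a difference of 1.04 (2.06-fold, 6 of 6 pairs, exact permutation adjusted p = 0.00289). Egr2 relative to Egr3 fell from 0.59 to 1.09 in Tfh to -0.96 to 0.13 in TLCP, a difference of -1.18 (6 of 6 pairs, exact permutation adjusted p = 0.00289). The ratio of Egr1 to Egr3 differed by -0.14, and 3 of 6 pairs shared that direction (exact permutation p = 0.567). Thus 3 of the 4 ratios differed between populations, and each of those 3 holds either Egr2 or Nr4a3. These tests ignore the pairing by number. With signs flipped within the numbered pairs, the adjusted p was 0.0417 for each of the 3 and 0.5625 for Egr1 to Egr3 (2-sided paired sign-flip test). For each of the 3, the p before adjustment was the smallest that this test allows with 6 pairs. Ratios with Nr4a2 were not tested because some libraries held fewer than 10 of its counts.

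Put per transcript length, the summed level of the NR4A family overlapped between populations while its make-up did not. The summed TPM of the 3 NR4A genes was 27.3 ± 5.79 in TLCP and 25.4 ± 3.92 in Tfh (SD, n = 6). Nr4a1 made up 73.3% ± 2.52 of that sum in TLCP and 52.7% ± 5.002 in Tfh, and the TLCP range of 69.1% to 76.3% lay above the Tfh range of 44.7% to 59.2%. Nr4a3 supplied 22.9% ± 2.31 and 43.6% ± 5.30, and Nr4a2 3.87% ± 1.91 and 3.70% ± 1.45. Summed Egr1, Egr2 and Egr3 came to 94.3 ± 11.5 TPM in TLCP and 103 ± 20.8 TPM in Tfh. Egr2 contributed 22.9% ± 2.31 in TLCP and 38.7% ± 1.71 in Tfh, with ranges of 20.1% to 26.0% and 36.8% to 41.4% that did not overlap. The share of Egr1 was 54.2% ± 5.77 against 44.4% ± 1.87, and that of Egr3 23.0% ± 5.65 against 16.8% ± 1.56.

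By TPM, Egr1 was the most abundant of the 6 in TLCP (51.2 ± 9.65 TPM). Egr2 (21.7 ± 4.11), Egr3 (21.4 ± 4.74) and Nr4a1 (20.0 ± 4.46) followed with overlapping ranges, so that their order is not resolved. Nr4a3 (6.22 ± 1.34) and Nr4a2 (1.05 ± 0.616) lay below them in all 6 libraries. In Tfh, Egr1 (46.0 ± 9.84 TPM) and Egr2 (40.0 ± 7.78) overlapped in range, although Egr1 was the higher in each of the 6 libraries. Egr3 (17.4 ± 3.88), Nr4a1 (13.5 ± 2.81) and Nr4a3 (11.03 ± 1.957) came next with overlapping neighbours. Egr3 lay above Nr4a1, and Nr4a1 above Nr4a3, in 5 of 6 libraries each. Nr4a2 (0.917 ± 0.365) was last in all 6. Egr2 thus overlapped with Egr3 and Nr4a1 in TLCP and lay above both in every Tfh library.

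**Figure D3:**
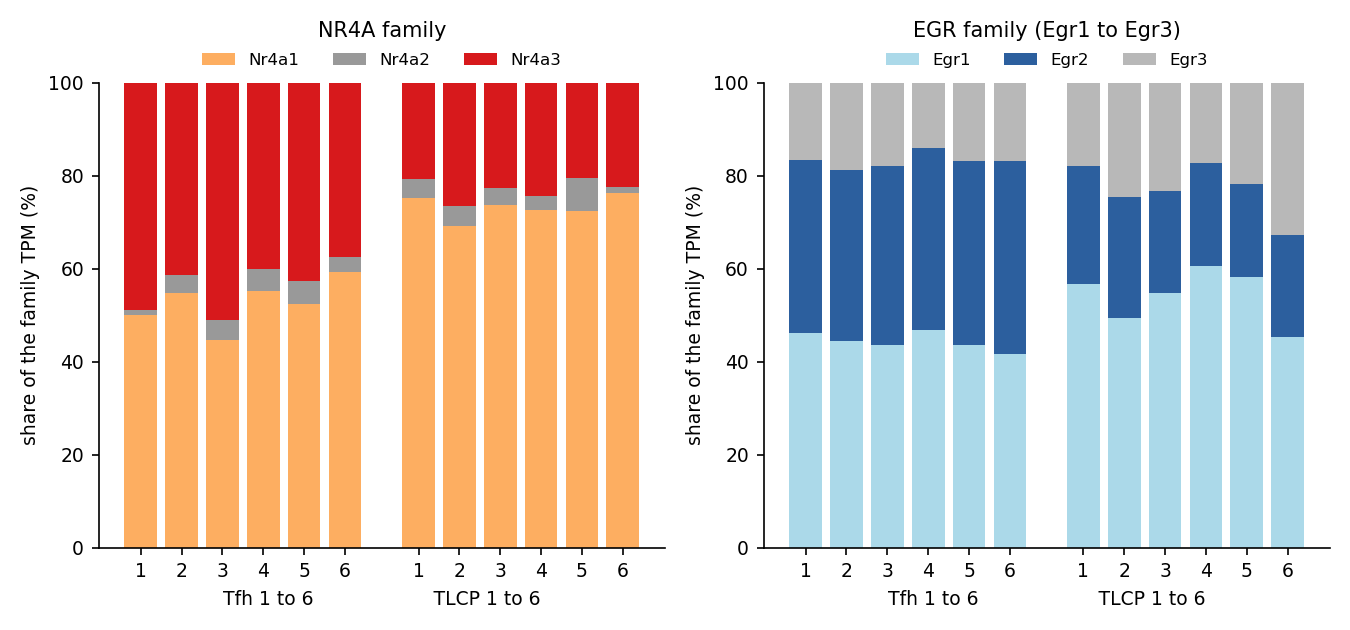
Share of the summed TPM of each family (vertical axes, percent, stacked to 100) held by each gene, 1 bar per library, Tfh 1 to 6 on the left and TLCP 1 to 6 on the right of each panel. The Nr4a3 part of the NR4A sum and the Egr2 part of the EGR sum are smaller in every TLCP bar than in any Tfh bar.

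Nr4a1 also varied with the library number. In TLCP it was at 21.2 to 24.3 CPM in the libraries numbered 1 to 3 and at 28.5 to 32.2 CPM in those numbered 4 to 6. In Tfh the same sets held 15.95 to 19.0 and 24.8 to 28.5 CPM, so the higher set of Tfh exceeded the lower set of TLCP. Of the 6 members, only Nr4a1 had numbers 4 to 6 above numbers 1 to 3 without overlap in both populations, a pattern found in 2.92% of genes tested (351). Other immediate early and heat shock transcripts were split in this way too. Junb, an AP-1 subunit, was at 192 to 203 against 251 to 323 CPM in TLCP and at 137 to 169 against 266 to 290 CPM in Tfh. Fos, its partner, was at 88.9 to 107 against 149 to 221 CPM in TLCP and at 59.5 to 73.3 against 124 to 141 CPM in Tfh. Hspa1a, an inducible heat shock chaperone, was at 0 to 0.200 against 3.78 to 9.72 CPM in TLCP and at 0 to 0.359 against 3.83 to 9.79 CPM in Tfh. Of 8 genes listed as responsive to sample handling, 6 had this split, and their summed level was 441 to 451 against 628 to 736 CPM in TLCP and 405 to 425 against 561 to 613 CPM in Tfh. No label names a batch, and the part of handling in the level of Nr4a1 was not tested. Between the populations, none of 7 tested handling genes passed in the fit without the block, where 33.2% of all genes tested did. In the fits where Nr4a1 passed, 2 of the 7 were higher in TLCP with the block, 1 with library totals alone and 1 on log2(TPM + 1). Of all genes, 19.1%, 26.7% and 28.5% were higher in these fits, in the same order.

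Within numbers 1 to 3, the log2 fold change of Nr4a1 was 0.38 (edgeR adjusted p = 0.0525), and within numbers 4 to 6 it was 0.17 (adjusted p = 0.427, edgeR). Egr2 stood at -0.96 and -1.37 in these sets and Nr4a3 at -1.20 and -1.07, all called. The difference between the sets was not tested. The drop in Egr2 and Nr4a3 was thus present in each set of 3 pairs.

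**Figure D4:**
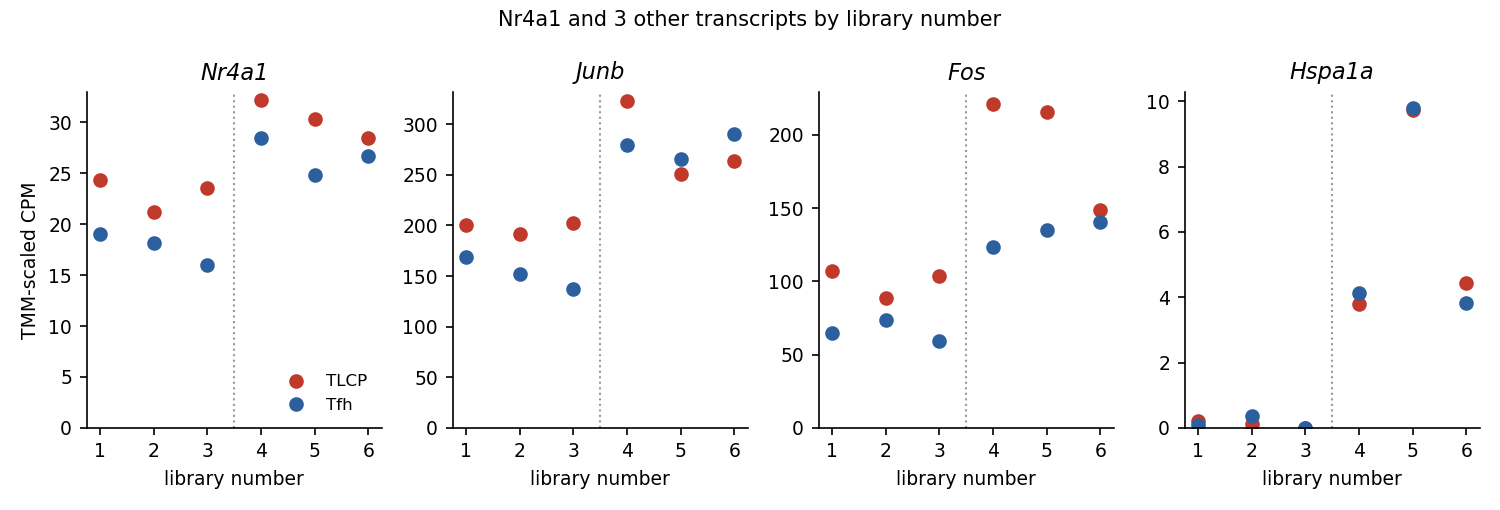
TMM-scaled CPM (vertical axes, from 0) of Nr4a1, Junb, Fos and Hspa1a against the library number (horizontal axes), TLCP in red and Tfh in blue, with a dotted line between numbers 3 and 4. All points of numbers 4 to 6 lie above those of numbers 1 to 3 of the same population in the 4 panels.

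The genes whose levels followed each member most closely were sought among 7855 genes of at least 10 mean CPM, as the correlation across 12 libraries of log2 CPM deviations from the population mean. These are descriptions over libraries that share depth, pairing and the split by number. The genes named were picked as the highest of 7855 correlations over 12 libraries, so high values follow in part from that choice. Shared regulation was not tested. For Nr4a1, Junb, Plec and Tpt1 ranked first, and since its libraries fall into the 2 sets of numbers, r was read within each set of 6 libraries: 0.86 and 0.74 for Junb, 0.82 and 0.84 for Plec (the cytolinker plectin), and 0.74 and 0.70 for Tpt1. Egr2 was followed by Gfi1, a zinc finger repressor (r = 0.84, rho = 0.86), Ubash3a, a phosphatase family member that restrains T cell receptor signaling (0.83, rho = 0.92), and Trim41 (0.82, rho = 0.84). Without the 2 libraries farthest from the median, these r values were 0.75, 0.76 and 0.63. Nr4a3 was followed by Ubap2l (0.88), Vps4a (0.87) and Eif3c (0.86), which fell to 0.81, 0.68 and 0.76 by the same step. Egr1 was followed by Mink1 (0.92), Syne1 (0.88) and Cdk5rap3 (0.88), with 0.67, 0.65 and 0.67 remaining. For Egr3, Gpatch1 (0.92), Fam174a (0.90) and Arpc5l (0.88) kept 0.89, 0.82 and 0.85.

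The members did not vary as 1 block from library to library. Of the 15 pairs of members, 7 had a positive r of deviations over the 12 libraries. Egr1 and Egr3 deviated in opposite directions (r = -0.77, rho = -0.58), with TLCP library 6 at the extreme of both. Nr4a1 and Nr4a3 had r = 0.55, and Egr1 and Egr2 had r = 0.52. Egr2 and Nr4a3, the 2 members that fell together between populations, had r = -0.05 within them.

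Factors that act on the promoters of these genes were examined next. Of 16 upstream factors, all tested, 4 were higher and 5 lower in TLCP (16.8% and 16.4% of all genes tested), with a median of 0.06. Nfatc2, a calcineurin-dependent NFAT factor, was at 101 ± 8.66 CPM in TLCP and 153 ± 6.96 in Tfh (-0.60, edgeR adjusted p = 9.7e-07). Nfatc1 was at 309 ± 27.1 and 389 ± 14.5 CPM (-0.33, edgeR adjusted p = 0.000357). Both, picked for the smallest p of the list, separated the populations without overlap. Such separation was seen for 8.86% of all genes tested downward and 8.3% upward. The remaining NFAT gene of the list, Nfatc3, went the other way, also without overlap, at 439 ± 14.1 CPM in TLCP and 386 ± 16.3 in Tfh (0.19, edgeR adjusted p = 0.00928). Mef2a, of the MEF2 family that regulates the Nr4a1 promoter in T cells, rose from 57.0 ± 6.39 to 74.1 ± 5.69 CPM (0.38, edgeR adjusted p = 0.00122), and Mef2d from 78.0 ± 7.69 to 97.3 ± 6.23 CPM (0.32, edgeR adjusted p = 0.00253). With library totals alone the counts were 7 higher and 1 lower (26.7% and 7.43% of all genes). On log2(TPM + 1) they were 7 higher and 0 lower (28.5% and 4.19% of all genes).

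T cell receptor proximal signaling genes were mostly lower in TLCP, with 11 of 16 lower and 2 higher (median -0.44). Over all genes tested, 16.4% were lower and 16.8% higher. Plcg1, the phospholipase C of the receptor pathway, was at 239 ± 27.7 CPM in TLCP and 404 ± 7.40 in Tfh (-0.76, edgeR adjusted p = 1.13e-07). Cd3d, a chain of the receptor complex, was at 195 ± 15.6 and 294 ± 28.9 CPM (-0.59, edgeR adjusted p = 2.87e-06), and Prkcq, the kinase PKC theta, at 271 ± 25.7 and 393 ± 22.5 CPM (-0.53, edgeR adjusted p = 4.07e-06). All 3 were lower in 6 of 6 pairs. The count rested on scaling, with 8 lower for library totals alone and 2 lower on log2(TPM + 1). In those fits 7.43% and 4.19% of all genes were lower. The T cell markers share 4 genes with this list and were lower as well, while the B cell and plasma cell markers were higher, and the part of other cells in these counts was not tested.

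Of the cofactors of the 2 families, Rxra was higher in TLCP and the EGR corepressors did not pass. The EGR corepressor Nab1 was at 180 ± 18.2 CPM in TLCP and 201 ± 15.8 CPM in Tfh (-0.16, edgeR adjusted p = 0.103), and Nab2, itself an EGR target, at 32.2 ± 2.74 and 36.2 ± 6.37 CPM (-0.17, edgeR adjusted p = 0.262). Egr4, the remaining EGR gene, had no counts in the 6 TLCP libraries, which allows up to 0.271 to 0.360 CPM. It had 2 counts each in Tfh libraries 1 and 3 and none in the other 4, which allows up to 0.239 to 0.478 CPM there. Of the retinoid X receptors, which pair with some but not all NR4A proteins, Rxra was higher in TLCP, at 14.0 ± 2.69 against 7.30 ± 1.51 CPM (0.94, edgeR adjusted p = 0.00031, higher in 6 of 6 pairs with overlapping ranges). Rxrb stood at 25.1 ± 2.55 and 24.2 ± 2.71 CPM (0.05, edgeR adjusted p = 0.753), and Rxrg had 0 counts throughout.

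The wider antigen response list, 46 genes induced by receptor signaling of which 40 were tested, went both ways. In TLCP 15 were higher and 9 lower, and 16 did not pass (median 0.14). Among all genes tested, 16.8% were higher and 16.4% lower. Tnfsf14, the TNF superfamily ligand LIGHT, was at 9.70 ± 2.26 CPM in TLCP and 41.2 ± 3.94 in Tfh (-2.09, edgeR adjusted p = 7.47e-10). Dusp4, a nuclear MAP kinase phosphatase, was at 7.18 ± 1.497 and 20.0 ± 3.46 CPM (-1.48, edgeR adjusted p = 8.69e-07). In the other direction, Irf4, a factor whose level follows receptor signal strength, was at 166 ± 15.1 and 81.0 ± 7.83 CPM (1.04, edgeR adjusted p = 5.76e-09), and Rgs1, a regulator of G protein signaling, at 226 ± 31.4 and 132 ± 9.16 CPM (0.77, edgeR adjusted p = 5.26e-07). None of these 4, picked as the smallest p of the list, overlapped between populations. Thus Egr2 and Nr4a3 fell alongside Tnfsf14 and Dusp4 while Irf4 and Rgs1 rose. Downward separation was seen for 8.86% of all genes and upward separation for 8.3%. Irf4 is also abundant in plasma cells, whose markers were higher in TLCP, and their part in its level was not tested. On library totals alone 18 of the list were higher and 5 lower (26.7% and 7.43% of all genes).

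Of 19 genes listed as EGR2 and EGR3 targets or anergy genes, 18 were tested, and 6 were higher and 5 lower in TLCP (median 0.15). The shares over all genes tested were 16.8% and 16.4%. Rnf128, the anergy-associated ubiquitin ligase GRAIL, was at 4.10 ± 1.298 CPM in TLCP and 23.8 ± 2.94 in Tfh (-2.54, edgeR adjusted p = 5.76e-09). Id3, an inhibitor of E proteins induced through EGR factors, was at 9.46 ± 2.05 and 31.3 ± 2.29 CPM (-1.72, edgeR adjusted p = 5.76e-09). Bcl6, the master repressor of follicular helper cells, was at 51.0 ± 11.4 and 229 ± 35.6 CPM (-2.17, edgeR adjusted p = 9.58e-08). Il10, an anti-inflammatory cytokine, stood against them at 46.8 ± 13.2 and 1.63 ± 0.848 CPM (4.85, edgeR adjusted p = 1.33e-08). All 4, picked as the smallest p of the list, separated the populations in every library, as 8.86% of all genes tested did downward and 8.3% upward. With numbers 4 to 6 alone, 3 of 19 tested were higher and 4 lower, and the median was -0.05. That fit called 1450 genes higher and 1342 lower of 12265 tested.

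Of 11 genes listed as NR4A targets, all tested, 5 were higher and 5 lower (median 0.78), beside 16.8% and 16.4% of all genes tested. Tox, a factor of chronically stimulated and follicular helper T cells, was at 93.8 ± 20.5 CPM in TLCP and 311 ± 11.6 in Tfh (-1.73, edgeR adjusted p = 4.09e-08), and Batf, an AP-1 family factor, at 46.0 ± 3.63 and 73.0 ± 8.86 CPM (-0.66, edgeR adjusted p = 5.57e-06). Foxp3, the regulatory T cell factor, was at 84.4 ± 9.003 and 32.6 ± 7.78 CPM (1.38, edgeR adjusted p = 1.54e-07), and Ccr7, a lymph node homing receptor, at 51.7 ± 9.44 and 18.1 ± 4.57 CPM (1.53, edgeR adjusted p = 1.05e-06). None of these 4, picked as the smallest p of the list, overlapped between populations. Downward separation was seen for 8.86% of all genes tested and upward separation for 8.3%. Ccr7 is also expressed by B cells, whose markers were higher in TLCP, and their part in its level was not tested.

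**Figure D5:**
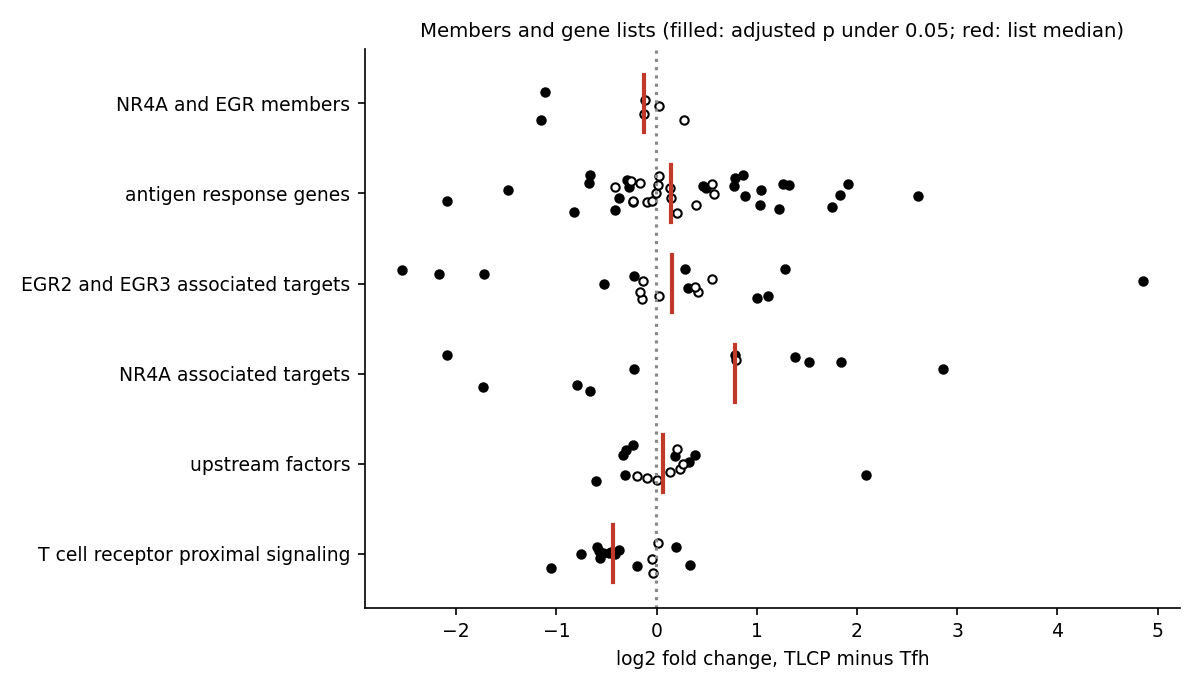
Log2 fold change, TLCP minus Tfh (horizontal axis), of each tested gene in the NR4A and EGR set and in 5 gene lists (rows), filled where the edgeR adjusted p was under 0.05, with a red bar at each median. Egr2 and Nr4a3 lie apart from the other 4 members, and filled points stand on both sides of 0 in every list.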

How the data were processed

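Per the labels' protocols, poly(A)-selected libraries (KAPA HyperPrep) were made from TRIzol and column purified RNA. The submitters' processing notes name the tools bcl2fastq 2.20, STAR 2.7.1a and DESeq2 1.30.1 and the build GRCm38, and no source used here names the annotation release. The authors deposited raw read counts per gene for each library, and the sense strand counts were used. Reads naming no gene (44.9% to 56.4% of all reads, multimapping reads included) stayed out of library sizes. Multimapping reads alone were 16.1% to 24.3% of all reads. The ribosomal RNA-like gene CT010467.1 held 12.9% to 30.9% of assigned counts and is included in the TPM values that the authors deposited. Log2 fold changes, p-values, the Wald score and a normalized signal per library (the count over 1 size factor) stand in the result table the authors deposited. Whole reads were recovered from that deposited signal for 100% of values (tolerance 0.01 reads), and the refit called 3983 genes, as the counts did.

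Genes were filtered with filterByExpr, scaled by TMM and tested with edgeR 4.0.16 in R 4.3.3 (2-sided quasi-likelihood test, population as the only term). Alternatives used DESeq2 1.42.0 and limma 3.58.1 and are given with their effects in the closing section. The self-test on simulated data recovered 95.5% of genes changed 2-fold (11827 genes tested) and 99.5% of genes changed 4-fold (11854 genes tested), with 5.91% and 5.24% of calls false, for TLCP against Tfh with 200 changed genes of at least 10 CPM. Its changes went up and down equally, in far fewer genes than the 3983 called in the data. It therefore does not cover the dependence on scaling. Paralog ratios used counts + 0.5. Intervals of 95% are 1.96 SE to each side. The members and lists were chosen with earlier results of these data known. Named are all members, Nab1, Nab2 and Egr4, at most 4 tested genes of smallest p per list, the 3 genes most like each member with at least 10 mean CPM, and Nfatc3, Fos, Hspa1a and Ighm, which were chosen after their values were seen. The lists share up to 4 genes, and 1 gene that the rule names is not reported here. GENCODE M21 (GRCm38) gave the positions, with the same span as the files for 54349 of 55401 genes.

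Library numbers run from 1 to 6 in each population, and the series gives 6 mice. Deviations from the population means correlated at 0.150 to 0.341 between libraries of the same number and at up to 0.223 between other numbers, and 10 of 12 libraries correlated best with their own number. The numbers were therefore taken as pairs, which is inferred. No label says how the samples of a group were kept apart, and p-values measure only the spread between these samples. Every pair of libraries of a population differed by more than counting noise, with a chi-square of at least 6.18 per degree of freedom.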

Additional observations from a re-analysis of the deposited data

Results flagged for a closer look

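Each gene of the set, Nab1 and Nab2 was checked for a library far from the other 5 of its population, 16 groups in all, and chance flags about 1 in 20 such groups. The highest TLCP library of Nr4a2, at 3.436 CPM, was the only 1 to stand apart, with a gap to its neighbour of 0.658 of the whole range (above Dixon's 95% critical value). It is the TLCP library numbered 5, and the rest held 0.542 to 1.53 CPM.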

How the results depend on the processing

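Egr2 and Nr4a3 kept their direction and their call in all 29 alternatives, and Nr4a1 kept its direction in the same 29. Without 1 library in turn, the log2 fold changes were -1.23 to -1.12 for Egr2, -1.21 to -1.06 for Nr4a3, 0.19 to 0.35 for Nr4a1, -0.18 to -0.04 for Egr1, -0.0645 to 0.0690 for Egr3 and -0.49 to 0.0482 for Nr4a2. The sign of Egr3 turned without TLCP library 2, TLCP library 6 or Tfh library 4, and that of Nr4a2 without TLCP library 6, Tfh library 4 or Tfh library 5. The log2 ratio of Egr1 to Egr3 ran from -0.25 to 0.0208 and turned without TLCP library 6. Nr4a1 passed the threshold with the replicate block (0.28), with library totals alone (0.45), on log2(TPM + 1) (0.54) and on log2(TPM + 0.1) (0.57), each of which raised the number of members called higher from 0 to 1. The block changed no other member's call. Values of Nr4a2 turned to 0.0678 with library totals alone, 0.27 in numbers 1 to 3, 0.0728 on log2(TPM + 1) and 0.13 on log2(TPM + 0.1). Egr1 turned to 0.0556, 0.16 and 0.16 with library totals alone and at the 2 TPM settings, and Egr3 to -0.00035 with limma voom and -0.0515 in numbers 1 to 3. Genes called lower in the antigen response list went from 9 to 5 with library totals alone and 4 on log2(TPM + 1), and those of the regulator and target lists together from 26 to 17 and 9. Over all genes tested, the share called lower went from 16.4% to 7.43% and 4.19%. Without the composition factor, and on the TPM scale, the median of all genes shifts upward by the amounts given with the scalings, and for the remaining changes the cause was not tested. The stricter filter of 10 counts in every library removed Nr4a2, which gave no value there. Of the settings, the recovered reads were chosen after seeing the data.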
